A study of Homo sapiens with 12 samples.

Results

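RNA was compared between C4.2B cells treated with the AKT inhibitor ipatasertib plus the EZH2 inhibitor tazemetostat (combination) and C4.2B cells treated with the vehicle DMSO, over every gene that passed an expression filter and with attention to processes other than glycolysis, the TCA cycle and oxidative phosphorylation. Of 58735 genes in the count table, 16646 passed edgeR's filter for genes with enough counts to be tested, and all of these are the subject of the comparison. C4.2B cells are a human prostate cancer line that descends from LNCaP and grows without androgen. The combination cells received tazemetostat at 1 μM for 6 days and then tazemetostat at 1 μM with ipatasertib at 0.25 μM, the DMSO cells received vehicle throughout, and both were collected 24 hours after a switch to charcoal-stripped FBS, a serum depleted of steroid hormones that all arms shared. Arms with ipatasertib alone (AKTi, 0.25 μM, no pretreatment) and tazemetostat alone (EZH2i, 1 μM with the 6 days of pretreatment) were used only to show where the combination differed from either agent. Each arm had 3 polyA libraries, A, B and C, from plates of the same cell line, so the p-values measure the spread between such libraries, which may be partly technical, and the results describe 1 cell line at 1 time point.

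AKT is a kinase downstream of PI3K that promotes growth and survival, and it keeps the FOXO transcription factors out of the nucleus by phosphorylating them. EZH2 is the catalytic subunit of Polycomb repressive complex 2 (PRC2), which places the repressive histone mark H3K27me3 on genes that are kept silent, many of them developmental regulators. In prostate cancer cells AKT is often active and EZH2 often abundant. Ribosome production, DNA replication and mitosis are transcriptional programs that growing cells run under the control of MYC, of the E2F factors and of the MuvB complexes, which bind promoters through short sequence elements.

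Total counts per library ranged from 14565714 to 22276417 in DMSO and from 15273647 to 18793827 in the combination. Between 22495 and 23008 genes had a count in the DMSO libraries and between 24768 and 25381 in the combination libraries, and the mitochondrial genome supplied 2.37% to 3.36% of the counts in DMSO and 5.14% to 5.64% in the combination. The part of these shifts in the results was not tested. No sample label calls the line luminal. Of the markers of prostate cell types, all 12 luminal markers passed the filter, whereas 4 of the 5 basal markers (KRT5, KRT14, KRT15 and TP63) did not. Passing the filter shows enough counts in some arm, which may be a treated one. The fifth basal marker, the integrin subunit ITGB4, was tested and rose by 2.46 on the log2 scale in the combination. Levels are given as CPM, the usual unit of counts relative to the depth of a library, after TMM scaling, one value per library in the order A, B and C, and differences as log2 fold changes of combination over DMSO with the standard error (SE) and the Benjamini-Hochberg adjusted p of edgeR's quasi-likelihood test. A gene is said to have risen or fallen only at an adjusted p under 0.05. In bulk libraries, fewer cells of a type and less RNA per cell cannot be told apart.

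Most of the transcriptome moved. Of the 16646 genes, 12186 changed (73.2%), with 6320 higher (38.0%) and 5866 lower (35.2%) in the combination. This split depended on the scaling, with 7574 higher and 4749 lower under scaling by library size alone and 7502 and 4821 by upper quartile. The median log2 fold change of all genes was 0.06 with TMM, 0.26 by library size and 0.25 by upper quartile, so a fold change here is a position among the other genes of the library, and the RNA content per cell was not measured. Large changes were mostly rises, with 1322 genes up and 538 down by more than 4-fold. The libraries of the arms did not overlap for 74.5% of genes, 38.5% with the combination above and 36.0% with it below. The combination differed from AKTi in 64.2% of genes, 32.1% in either direction, and from EZH2i in 46.7%, 21.1% higher and 25.7% lower. Over all tested genes, 3272 (19.7%) were lower in the combination than in AKTi and also lower than in EZH2i, and 2573 (15.5%) were higher than in both. These last counts set the combination libraries against each agent in turn and share those libraries. The counts of list members below are to be read beside the shares of all genes given here.

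**Figure D1:**
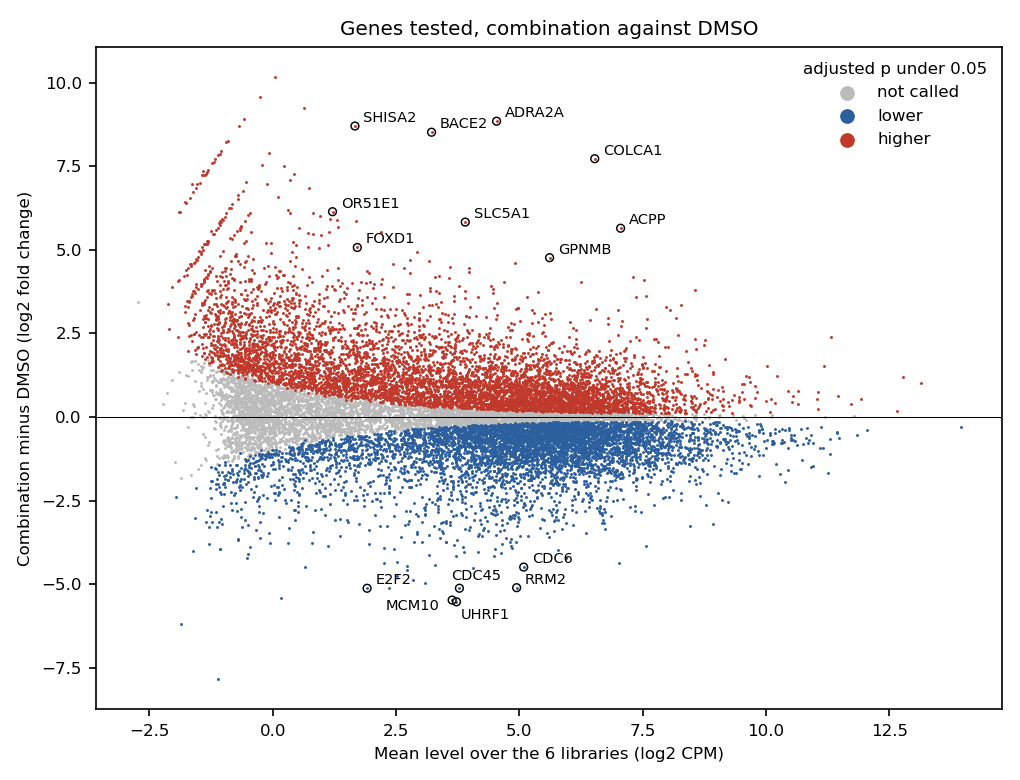
Log2 fold change of combination over DMSO (vertical axis) against mean log2 CPM (horizontal axis) for the 16646 tested genes, 1 point per gene, with called genes coloured by direction and some genes of large change and a mean log2 CPM of at least 1 named. Of the genes changed by more than 4-fold, 1322 lie above 0 and 538 below.

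Among protein-coding genes with a mean log2 CPM of at least 1 over the 6 libraries, the largest rises began near 0 CPM in DMSO. ADRA2A, an alpha2-adrenergic receptor, had 1.14, 1.03 and 0.911 CPM in DMSO and 470.0, 496 and 445 CPM in the combination, a log2 fold change of 8.84 (SE 0.144, adjusted p = 1.8e-34). SHISA2, a membrane protein of the endoplasmic reticulum that restrains WNT and FGF receptors, went from 0.0673, 0.148 and 0.0959 to 48.4, 41.5 and 46.2 CPM, a log2 fold change of 8.70 (SE 0.241, adjusted p = 9.2e-28). Every combination library was far above every DMSO library for both genes, and the EZH2i level lay between, with a mean of 124 ± 9.56 CPM for ADRA2A and 2.496 ± 0.361 CPM for SHISA2 (SD, n = 3). The combination exceeded EZH2i alone by 4.17 for SHISA2 (adjusted p = 7.9e-24) and by 1.93 for ADRA2A (adjusted p = 1.8e-21) on the log2 scale. BACE2, a beta-secretase relative (8.52), SCNN1G, the gamma subunit of the epithelial sodium channel (5.92), SLC5A1, the sodium-coupled glucose carrier SGLT1 (5.83), and the prostate odorant receptor OR51E1 (6.14) were next to them. OR51E1 and the secreted protein OLFM2 did not differ detectably from EZH2i alone (log2 difference 0.12, adjusted p = 0.51, and 0.13, adjusted p = 0.49). Lower in rank stood DIO3, which inactivates thyroid hormone (5.52), the autophagy receptor OPTN (4.93) and the lysosomal glycoprotein GPNMB (4.76).

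The genes with the largest falls included parts of the replication machinery. MCM10, which activates the replicative helicase, had the largest fall at this level, from 88.4, 84.8 and 87.5 CPM to 1.82, 1.96 and 1.87 CPM, a log2 fold change of -5.52 (SE 0.119, adjusted p = 8.8e-31). UHRF1, which brings the maintenance DNA methyltransferase to replicated DNA, went from 77.1, 77.96 and 85.9 to 1.88, 1.61 and 1.93 CPM (-5.47 (SE 0.114, adjusted p = 3.6e-31)). The helicase subunit CDC45 changed by -5.12, the ribonucleotide reductase subunit RRM2 by -5.10, the ubiquitin ligase receptor DTL by -4.94, the checkpoint mediator CLSPN by -4.87, the cohesin acetyltransferase ESCO2 by -4.51 and the DNA glycosylase NEIL3 by -4.36. Genes were named here only where the DMSO and combination libraries did not overlap, and in each of these the combination was also lower than AKTi and than EZH2i.

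**Figure D2:**
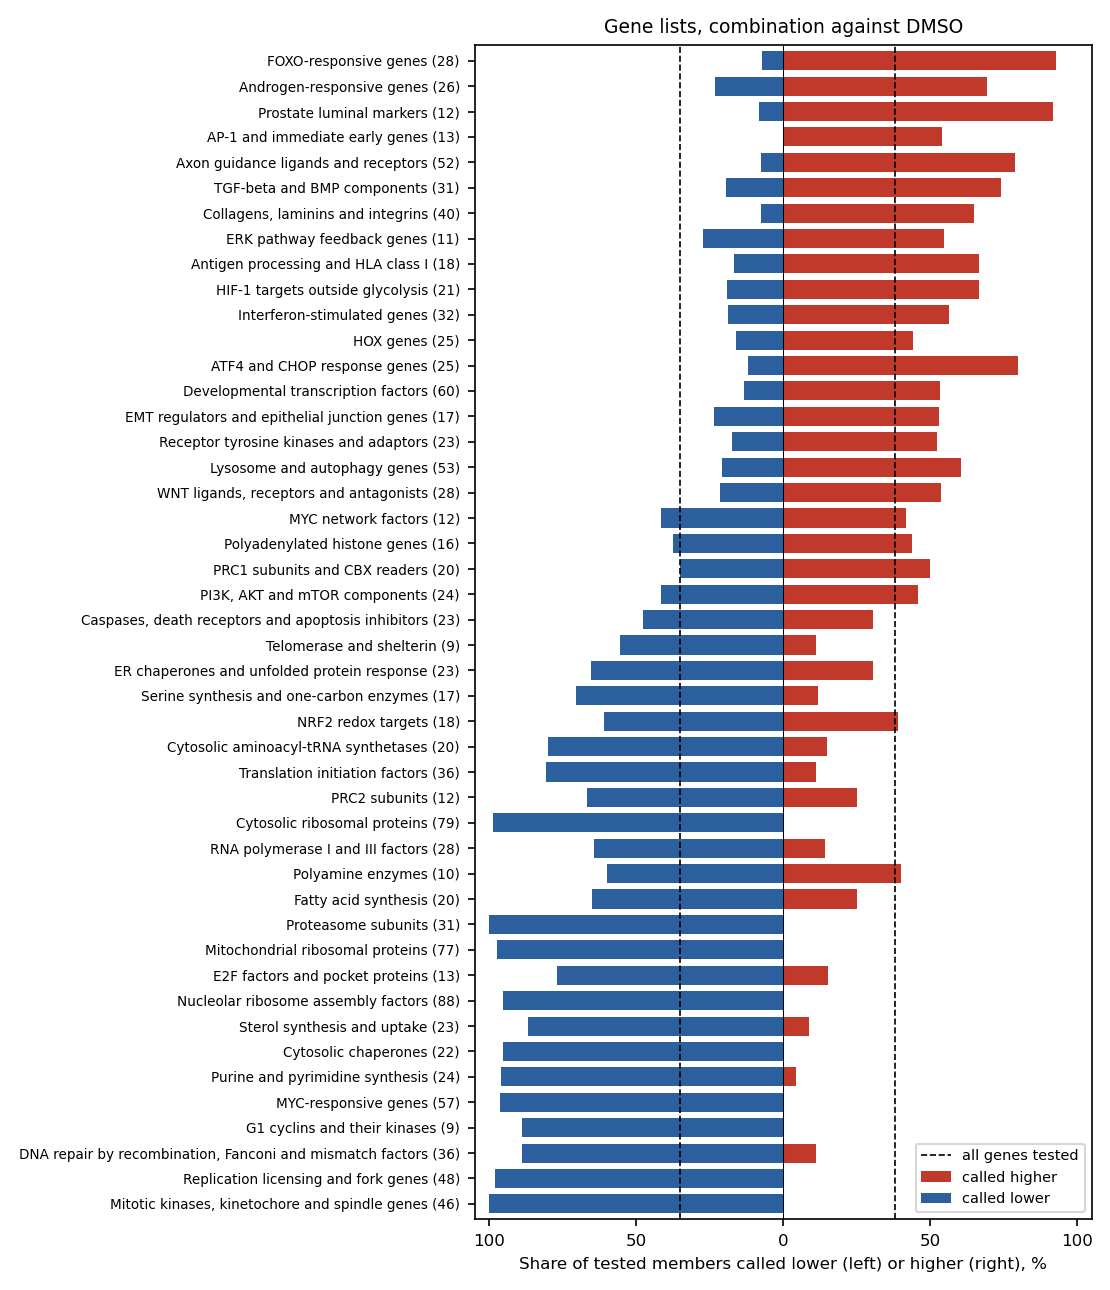
Percentage of tested members called lower (blue bars, left) and higher (red bars, right) in the combination against DMSO, 1 row per gene list with at least 9 tested members (number tested in parentheses), ordered by the median log2 fold change of the list. Dashed lines give the share of all genes tested, 35.2% lower and 38.0% higher. Mitotic genes (median -2.87) and replication genes (median -2.49) stand at the bottom and FOXO-responsive genes (median 1.63) at the top.

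Mitotic genes fell without exception. All 46 tested mitotic kinases, kinetochore and spindle genes were lower in the combination, each by more than 2-fold and each also lower than in AKTi and in EZH2i, with a median log2 fold change of -2.87 and a range of -4.35 to -1.13, beside 35.2% of all genes lower and a median of 0.06. CDK1, the kinase that drives entry into mitosis, had 615, 564 and 561 CPM in DMSO and 27.6, 29.6 and 28.3 CPM in the combination, a log2 fold change of -4.35 (SE 0.0698, adjusted p = 1.3e-34). Its level was 179.5 ± 11.1 CPM in AKTi and 192 ± 14.7 CPM in EZH2i (SD, n = 3), so that each agent alone was already below DMSO and the combination was below both. AURKB, the kinase of the chromosomal passenger complex, changed by -4.14, PLK1, a kinase of centrosome maturation, by -3.22, BIRC5, which encodes survivin, by -3.17, and cyclin B1 (CCNB1) by -2.82. MKI67, the proliferation antigen Ki-67, went from 203, 226 and 215 to 33.7, 34.02 and 33.05 CPM, a log2 fold change of -2.68 (SE 0.0636, adjusted p = 1.2e-29). CENPN, a kinetochore protein, was among the genes with a smaller fall (-2.14). As a list, the median log2 level relative to the DMSO mean was -1.25, -1.31 and -1.27 in the AKTi libraries, -0.95, -0.86 and -0.88 in EZH2i and -2.78, -2.86 and -2.90 in the combination, with no overlap between arms.

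Many mitotic gene promoters held the letters of the element through which MuvB complexes bind late cell cycle genes. This cell cycle genes homology region (CHR), searched as TTTGAA on both strands in the 300 bases from 250 before to 50 after each RefSeq gene start (GRCh38.p14), was present in 26 of the 39 mitotic promoters with a sequence (66.7%), compared with 1001 of 10621 promoters of tested protein-coding genes (9.42%). Among the genes that fell by more than 4-fold it was present in 104 of 377 promoters (27.6%), and among those that rose by more than 4-fold in 76 of 724 (10.5%). CCAAT, the NF-Y box, stood in 76.9% of the mitotic promoters and 36.7% of all. It was not particular to them, with 83.3% of sterol, 57.1% of replication and 52.2% of FOXO-responsive promoters. Nucleolar (37.3%), MYC-responsive (34.8%) and axon guidance (34.8%) promoters were near the share of all. The CHR windows of CCNB2, PLK1, MKI67, CDC20 and CDK1 are shown because these genes were among the mitotic genes that fell (-2.48, -3.22, -2.68, -2.88 and -4.35 on the log2 scale), each 30 bases, 5′ to 3′ on the strand of the gene, with the element in capitals. They lie at chr15:59105105-59105134 (plus strand), chr16:23678848-23678877 (plus), chr10:128126435-128126464 (minus), chr1:43358904-43358933 (plus) and chr10:60778158-60778187 (plus). A match is a description of the letters and no measure of binding.
CCNB2: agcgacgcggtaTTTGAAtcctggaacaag
PLK1: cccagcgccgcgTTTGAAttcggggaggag
MKI67: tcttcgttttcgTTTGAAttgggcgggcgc
CDC20: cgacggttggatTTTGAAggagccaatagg
CDK1: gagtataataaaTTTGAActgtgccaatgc

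Replication genes fell to a similar extent. Of 48 licensing and fork genes 47 were lower and none was higher, 43 fell by more than 2-fold, and 45 were also lower than in each single-agent arm, with a median of -2.49. MCM2, a subunit of the helicase that licenses origins, had 208, 204 and 228 CPM in DMSO and 33.2, 30.6 and 27.004 CPM in the combination (-2.82 (SE 0.06905, adjusted p = 3.1e-29)). The licensing factors CDC6 (-4.48) and CDT1 (-2.47) and the helicase subunit MCM4 (-3.16) were likewise below the DMSO range in all 3 combination libraries. The list level was -0.78, -0.77 and -0.79 in AKTi, -1.35, -1.27 and -1.25 in EZH2i and -2.57, -2.50 and -2.53 in the combination, so EZH2i lay below AKTi for replication genes, whereas AKTi lay below EZH2i for mitotic genes. This order of the single agents was read from the list levels and was not tested.

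The E2F transcription factors of replication genes changed too. Of 13 E2F factors and pocket proteins 10 fell and 2 rose. E2F1, the activator of the G1/S genes, had 90.9, 84.5 and 87.9 CPM in DMSO and 5.63, 5.71 and 5.68 CPM in the combination (-3.95 (SE 0.0882, adjusted p = 2.0e-30)), and E2F2 went from 22.1, 20.6 and 20.3 to 0.558, 0.288 and 0.967 CPM (-5.12 (SE 0.228, adjusted p = 2.4e-21)). The late-acting repressors E2F7 (-4.45) and E2F8 (-5.10) fell as well. RBL2, the pocket protein p130 of resting cells, rose by 0.28 (adjusted p = 1.1e-04) and TFDP2, a dimer partner of E2F, by 0.76 (adjusted p = 2.7e-13). An E2F site, searched as TTTCGCGC, TTTGGCGC or TTTCCCGC on both strands, was present in 18 of 42 replication promoters (42.9%), in 4.58% of all 10621 promoters, in 13.5% of the 377 that fell by more than 4-fold and in 2.35% of the 724 that rose by more than 4-fold. CHR stood in 1 of the 42 replication promoters. The 4 windows below are those of E2F1, E2F2, MCM6 and PCNA, chosen because the first pair are the factors themselves and the others are a licensing and a fork gene (-2.36 and -3.09), with a site in capitals. They lie at chr20:33686387-33686416, chr1:23531257-23531286, chr2:135876511-135876540 and chr20:5126663-5126692, all on the minus strand. In MCM6 and PCNA the marked site is a reverse complement. A forward TTTGGCGC overlaps it in the MCM6 window and is only partly in capitals.
E2F1: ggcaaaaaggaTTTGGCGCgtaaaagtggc
E2F2: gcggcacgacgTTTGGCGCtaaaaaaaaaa
MCM6: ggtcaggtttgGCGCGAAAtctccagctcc
PCNA: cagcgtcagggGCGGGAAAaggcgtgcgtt

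**Figure D3:**
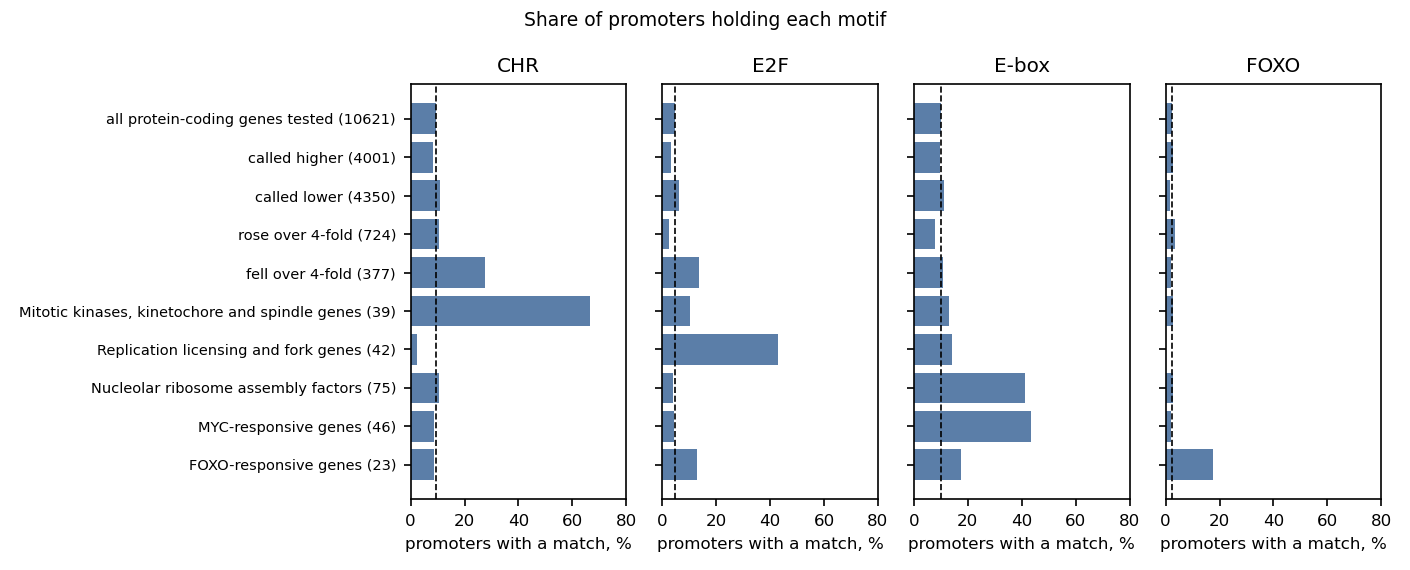
Percentage of promoters (horizontal axis) that hold the CHR, E2F, E-box or FOXO motif, for all tested protein-coding genes, genes changed by more than 4-fold and the gene lists named. CHR stands in 66.7% of mitotic promoters against 9.42% of all, E2F sites in 42.9% of replication promoters against 4.58%, and the E-box in 41.3% of nucleolar gene promoters against 10.2%.

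Cyclins of G1 fell less evenly, and the CDK inhibitors went both ways. Of 9 G1 cyclins, kinases and phosphatases 8 fell, from -0.42 for CCND1 (cyclin D1) to -2.81 for CCNE2 (cyclin E2) and -3.39 for CDC25A, the phosphatase that activates CDK2. CDKN1C, which encodes the inhibitor p57, had 0.7405, 1.48 and 0.911 CPM in DMSO and 15.9, 12.9 and 15.6 CPM in the combination (3.85 (SE 0.216, adjusted p = 2.6e-18)), with the arms well apart. CDKN1A, which encodes p21, went from 81.8, 75.5 and 72.4 to 186, 179 and 164 CPM (1.21 (SE 0.0653, adjusted p = 9.6e-19)), although AKTi alone had a lower level than DMSO, with 45.1 ± 4.28 CPM (SD, n = 3). CDKN2B (p15) rose by 1.86 and CDKN1B (p27) by 0.31. The INK4 genes other than CDKN2B, namely CDKN2A (-0.58), CDKN2C (-1.70) and CDKN2D (-1.04), fell. CDKN1A, CDKN1B and CDKN1C were higher in the combination than in either single-agent arm.

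Genes of DNA repair by recombination and the Fanconi pathway followed replication. Of 36 tested, 32 fell and 4 rose (median -1.83), beside 35.2% of all genes lower and 38.0% higher. BRCA1 went from 74.1, 80.03 and 85.1 to 8.47, 10.6 and 10.1 CPM (-3.05 (SE 0.0893, adjusted p = 7.4e-27)), the nuclease EXO1 changed by -4.43 and the strand-exchange translocase RAD54L by -4.76. Against this direction the mismatch repair gene PMS2 rose from 50.4, 49.8 and 51.2 to 147, 138 and 147 CPM (1.51 (SE 0.0615, adjusted p = 1.6e-22)) and the damage kinase ATM rose by 0.65 (adjusted p = 9.8e-09), and both were also above each single-agent arm. PMS2 has near-identical copies in the genome, and how the counting split such reads was not given.

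**Figure D4:**
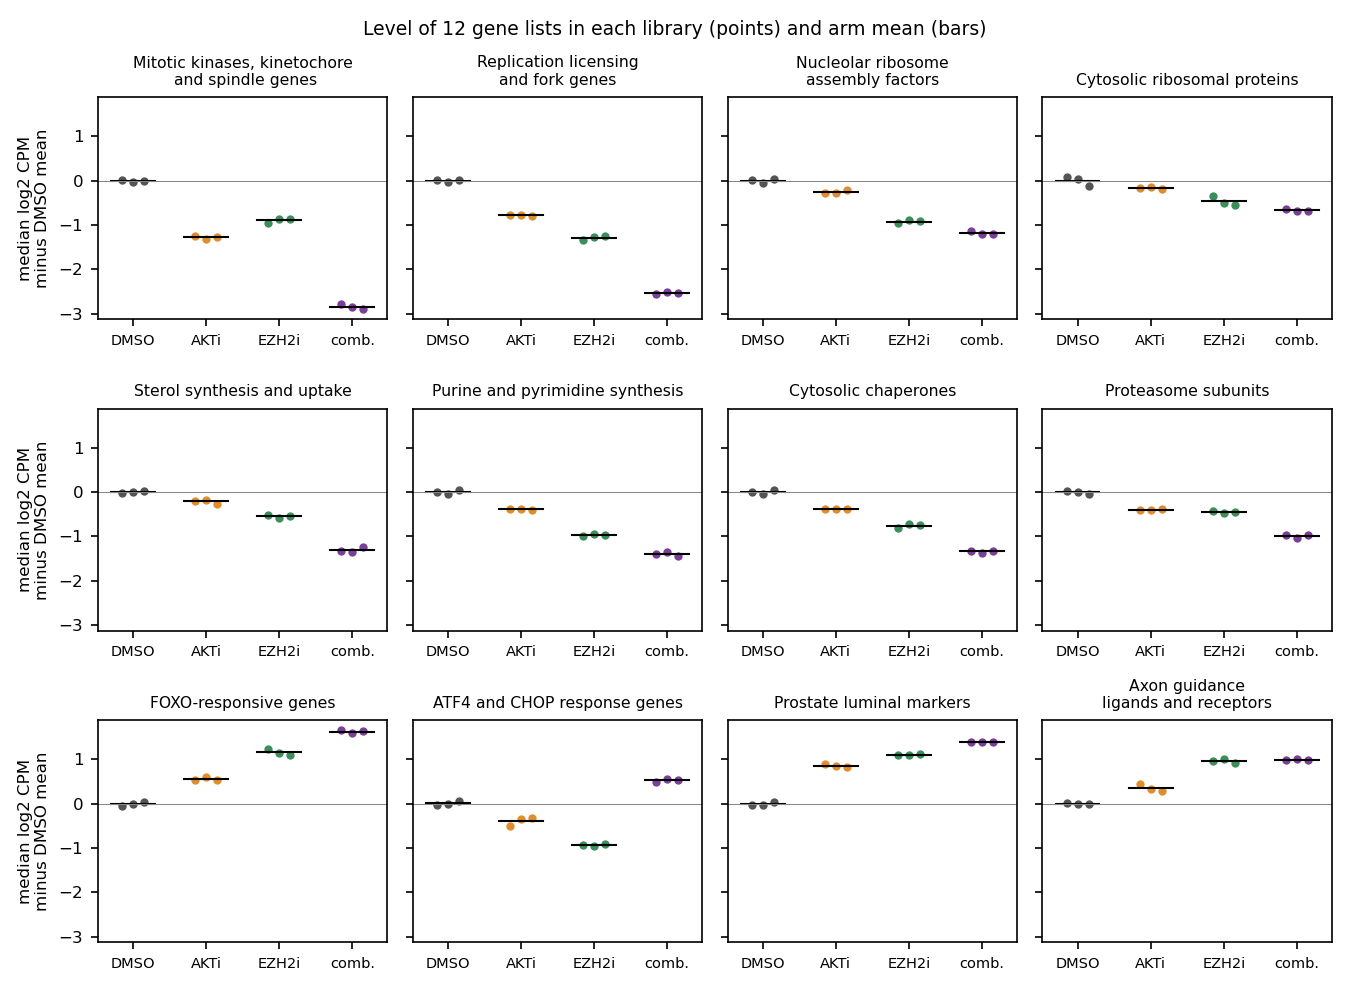
Median log2 CPM of the genes of 12 lists relative to the DMSO mean (vertical axis, log2 scale), 1 point per library and 3 per arm, for DMSO, AKTi, EZH2i and the combination. Mitotic genes step down to -2.78, -2.86 and -2.90 in the combination libraries, and the ATF4 and CHOP response genes lie below 0 with either agent alone and above 0 in the combination.

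Genes of ribosome production fell. None of 88 nucleolar factors that assemble ribosomes rose and 84 fell, with a median of -1.17, beside 35.2% of all genes lower. Of the 88, 55 were lower than in both single-agent arms, compared with 19.7% of all genes. NCL, the abundant nucleolar protein nucleolin, had 1206, 1247 and 1429.5 CPM in DMSO and 504, 477 and 488 CPM in the combination (-1.40 (SE 0.0603, adjusted p = 9.0e-22)). The rRNA methyltransferase FBL changed by -1.52, the pseudouridine synthase DKC1 by -1.21, the 60S factor NOP16 by -2.28 and POP1, a scaffold of RNase P and MRP, by -2.43. Of 28 RNA polymerase I and III genes 18 fell and 4 rose, with 9 higher by library size scaling and 8 by upper quartile. POLR3G, a polymerase III subunit of proliferating and stem cells, fell by 3.09 on the log2 scale (adjusted p = 1.3e-21) while its paralog POLR3GL rose by 1.18 (adjusted p = 4.2e-06), and MAF1, the repressor of polymerase III, rose by 0.45 (adjusted p = 1.7e-07).

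The E-box bound by MYC and MAX, searched as CACGTG (its own reverse complement), stood in 31 of 75 nucleolar promoters (41.3%) and in 10.2% of all 10621. Genes that fell by more than 4-fold held it in 10.6% of promoters. The windows of UTP20, a factor of small subunit assembly, NAT10, the RNA acetyltransferase, and DDX54, a nucleolar helicase, are shown as nucleolar genes with 1 such element before the gene start (-1.43, -1.07 and -0.78 on the log2 scale), the element in capitals. They lie at chr12:101280075-101280104 (plus strand), chr11:34105599-34105628 (plus) and chr12:113185522-113185551 (minus).
UTP20: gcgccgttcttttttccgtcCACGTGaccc
NAT10: tttaatgcgcttgcgCACGTGctgtctacc
DDX54: ctcagcggaggtCACGTGgtcaccgcacct

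Ribosomal proteins themselves moved by less and more uniformly. Of 79 cytosolic ribosomal protein genes 78 fell and none rose (median -0.68), beside 35.2% of all genes lower. Only 5 fell by more than 2-fold, RPS15A (-1.28) among them. It has processed copies elsewhere in the genome whose reads may be shared. Mitochondrial ribosomal proteins fell by more, 75 of 77 with a median of -1.10, for example MRPL17 (-1.90) and MRPS25 (-1.88). Of 36 translation initiation factors 29 fell and 4 rose. EIF4E, the cap-binding protein, went from 139, 129 and 136 to 49.1, 39.2 and 44.3 CPM (-1.60 (SE 0.0724, adjusted p = 4.1e-21)) and EIF5A changed by -1.79. In contrast EIF4B, which assists the cap-binding helicase, rose by 0.53 (adjusted p = 2.4e-11) and EIF1, a start codon selection factor, by 0.35 (adjusted p = 7.3e-08). Among the 4E-binding proteins, which sequester EIF4E, EIF4EBP1 fell (-0.58) while EIF4EBP2 (0.38) and EIF4EBP3 (1.15) rose.

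MYC mRNA changed little beside the genes that respond to it. Protein was not measured in these libraries, and the paper reports by immunoblot that EZH2 inhibition alone lowered MYC protein. MYC had 239.6, 246 and 254 CPM in DMSO and 207, 195 and 192 CPM in the combination, a log2 fold change of -0.32 (SE 0.0552, adjusted p = 3.7e-06), which was smaller (-0.12, adjusted p = 0.044) with scaling by library size. AKTi had 404 ± 15.9 CPM and EZH2i 95.4 ± 6.199 CPM (SD, n = 3), so the combination lay between the single agents, below AKTi by a log2 difference of -1.03 (adjusted p = 1.8e-18) and above EZH2i by 1.05 (adjusted p = 8.9e-18). By comparison, 55 of the 57 MYC-responsive genes fell and none rose, beside 35.2% of all genes lower. The spermidine synthase SRM changed by -2.44 and the tRNA synthetase subunit FARSA by -1.72. The level of the MYC-responsive list relative to DMSO was -0.31, -0.33 and -0.34 in AKTi and -1.17, -1.13 and -1.13 in EZH2i. In the combination it was -1.42, -1.45 and -1.56. Of the 12 MYC network factors 5 rose and 5 fell, shares near those of all genes (38.0% and 35.2%). The MAX partners that oppose MYC included MXD4, which rose from 74.5, 76.5 and 73.4 to 189.6, 192 and 179 CPM (1.32), MXI1, which rose by 0.92, and MXD3, which fell by 2.42 on the log2 scale. MLX, the partner of the MondoA and ChREBP factors, changed by -1.47.

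Genes of nucleotide synthesis fell as replication genes did. Of 24 purine and pyrimidine genes 23 fell (median -1.38) and the exception, ADSSL1, an adenylosuccinate synthase of muscle, rose by 1.76 from a low level of 2.56, 2.07 and 1.97 CPM. RRM2, which makes deoxynucleotides, had 180.1, 172 and 182 CPM in DMSO and 4.97, 5.36 and 5.26 CPM in the combination (-5.10 (SE 0.0871, adjusted p = 8.3e-34)). Thymidylate synthase TYMS changed by -3.11 and PPAT, the first enzyme of purine synthesis, by -2.01. All 3 were lower than in each single-agent arm.

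Serine and one-carbon genes had a different relation to the single agents. Of 17 tested, 12 fell and 2 rose against DMSO (median -0.49, with 10 and 4 by library size or upper quartile), yet 10 were higher in the combination than in EZH2i alone, compared with 21.1% of all genes. PSAT1, of serine synthesis, had 800.3, 758 and 807 CPM in DMSO, 185, 212 and 202 CPM in EZH2i and 535, 522 and 534 CPM in the combination, a fall of 0.57 on the log2 scale from DMSO (adjusted p = 3.2e-12) and a rise of 1.41 over EZH2i (adjusted p = 2.6e-22). SHMT2, the mitochondrial serine hydroxymethyltransferase, was also below DMSO (-0.36) and above EZH2i (0.82). Its cytosolic counterpart SHMT1 (-1.88) and MTHFD1 (-2.19) fell and were below both agents.

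Of 10 polyamine genes 4 rose and 6 fell. The synthesis enzymes ODC1 (-1.05), AMD1 (-1.16) and SRM (-2.44) fell. SAT1, the spermidine acetyltransferase of polyamine breakdown, went from 18.5, 17.8 and 17.7 to 143, 138 and 135 CPM (2.95 (SE 0.0719, adjusted p = 2.6e-29)), and the oxidases SMOX and PAOX rose by 2.21 and 1.07. SAT1 and SMOX were higher than in either single-agent arm.

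Genes of lipid synthesis mostly fell. Of 23 sterol synthesis and uptake genes 20 fell and 2 rose (median -1.33), and 19 were below both single agents. Among all genes 35.2% fell and 19.7% were below both. EBP, a sterol isomerase, went from 147, 134 and 141 to 19.6, 20.1 and 15.6 CPM (-2.93 (SE 0.0768, adjusted p = 2.4e-28)), with AKTi at 73.95 ± 3.05 and EZH2i at 52.9 ± 1.39 CPM (SD, n = 3). HMGCS1, which makes the HMG-CoA of the pathway, changed by -1.03. TM7SF2, a sterol reductase, rose by 1.61 (adjusted p = 2.2e-23). Of 20 fatty acid genes 13 fell and 5 rose. FASN, the fatty acid synthase, had 1526, 1782 and 1809 CPM in DMSO and 503, 525 and 470.5 CPM in the combination (-1.77 (SE 0.0644, adjusted p = 5.6e-24)), the desaturases FADS1 and SCD changed by -2.74 and -1.55, and their regulator SREBF1 by -1.27. The acyltransferase AGPAT2 rose by 2.93 and ACSL4, which activates polyunsaturated fatty acids, by 2.34.

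Genes of protein folding and proteasomal breakdown fell, and those of the lysosome and autophagy mostly rose. Of 22 cytosolic chaperones 21 fell (median -1.35), including HSPA8, the constitutive HSP70, from 4426, 4297 and 4302 to 1413, 1355 and 1325 CPM (-1.67 (SE 0.05205, adjusted p = 5.0e-26)), the exchange factor HSPH1 (-2.40) and the chaperonin subunit TCP1 (-1.99). All 31 listed proteasome subunits fell, with a median of -1.00 and PSMD14, the deubiquitinase of the lid, at -1.70. PSMB8, a proteasome subunit outside this list, rose, with log2 fold changes of 2.25 to 2.56 over the 12 alternatives that tested it. Among all genes 35.2% fell and 38.0% rose. Of 53 lysosome and autophagy genes 32 rose and 11 fell (median 0.41), against 38 and 7 with scaling by library size or upper quartile. GABARAPL1, an ATG8 protein of the autophagosome, went from 15.4, 13.9 and 16.4 to 89.7, 90.001 and 84.9 CPM (2.52 (SE 0.0787, adjusted p = 5.0e-26)), the autophagy receptor SQSTM1 rose by 1.22, the initiating kinase ULK1 by 1.36 and the proteases CTSF and CTSD by 1.61 and 1.35. The alpha-galactosidase GLA fell (-2.07), as did the ATG8 protease ATG4A (-0.91). ULK1 in the combination did not differ detectably from EZH2i alone (log2 difference 0.02, adjusted p = 0.81).

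FOXO factors and the genes that respond to them rose together. FOXO3 had 60.2, 72.2 and 76.1 CPM in DMSO and 544, 524 and 538 CPM in the combination (2.94 (SE 0.0652, adjusted p = 1.8e-30)), FOXO1 went from 2.69, 3.69 and 3.93 to 18.7, 16.5 and 19.9 CPM (2.40 (SE 0.152, adjusted p = 1.1e-16)), and both were also above each single-agent arm. Of the 4 FOXO genes 3 rose, and for FOXO6 the difference was -0.49 (adjusted p = 0.019) that was not called without DMSO library C or combination library A or with scaling by library size or upper quartile (adjusted p up to 0.16). Of 28 FOXO-responsive genes 26 rose and 2 fell, with a median of 1.63, and 20 were above both single agents, beside 38.0% and 15.5% of all genes. TXNIP, the thioredoxin-binding arrestin that restrains glucose uptake, had 99.3, 101 and 106 CPM in DMSO and 1451, 1369 and 1406 CPM in the combination (3.79 (SE 0.05804, adjusted p = 5.1e-35)). KLHL24, a ubiquitin ligase adaptor, rose by 4.05, PIK3IP1, an inhibitor of PI3K, by 4.03, SESN1, an inhibitor of mTORC1, by 3.22 and CCNG2, an atypical cyclin of arrested cells, by 1.78. The exceptions were the superoxide dismutase SOD2 (-0.64) and the antiproliferative gene TOB1 (-0.42), which fell.

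The levels of the FOXO-responsive list were 0.54, 0.61 and 0.52 in the AKTi libraries, 1.24, 1.15 and 1.09 in EZH2i and 1.65, 1.59 and 1.64 in the combination, as log2 differences from the DMSO mean, so all 4 arms were separate and EZH2i lay above AKTi. The forkhead core element GTAAACA, searched on both strands, stood in 4 of 23 of these promoters (17.4%) and in 2.32% of all. The windows of TXNIP (chr1:145996685-145996714, minus strand) and BCL2L11 (chr2:111120680-111120709, plus strand), a BH3-only gene on the same list, are shown with the element in capitals.
TXNIP: tcgggctcctgGTAAACAaggaccgggcag
BCL2L11: gagttactccgGTAAACAcgccagggacgg

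**Figure D5:**
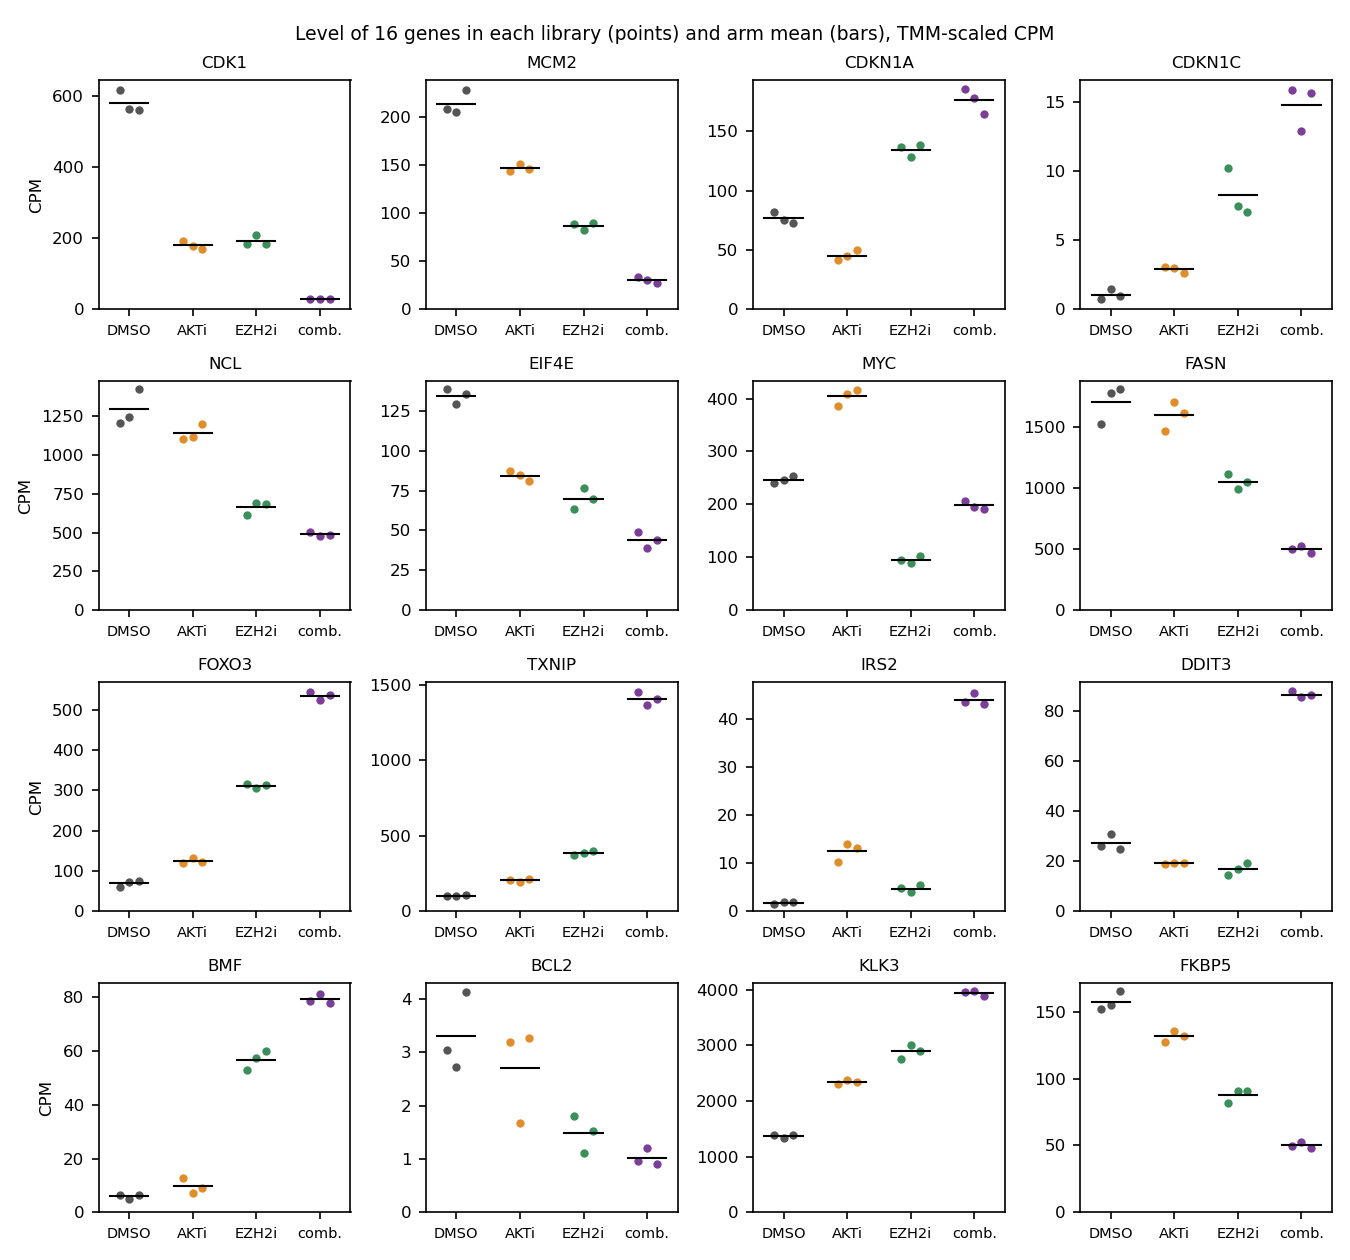
Level in CPM (vertical axis, linear and starting at 0 in each panel) of 16 genes in each library of the 4 arms, 1 point per library, with a bar for the arm mean. CDK1 falls to 27.6, 29.6 and 28.3 CPM in the combination and TXNIP rises to 1451, 1369 and 1406 CPM, while MYC in the combination lies between AKTi and EZH2i.

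Receptor tyrosine kinases and their adaptors signal upstream of PI3K. Of 23 tested, 12 rose, 4 fell and 7 were not called, with a median of 0.42, beside 38.0% of all genes higher. IRS2, an adaptor of the insulin and IGF1 receptors, had 1.41, 1.84 and 1.92 CPM in DMSO, 10.2, 14.01 and 13.2 CPM in AKTi, 4.75, 4.03 and 5.37 CPM in EZH2i and 43.5, 45.4 and 43.01 CPM in the combination, a log2 fold change of 4.65 (SE 0.152, adjusted p = 2.0e-25) over DMSO. The 4 arms did not overlap, and the combination was above AKTi by 1.82 (adjusted p = 2.6e-16) and above EZH2i by 3.21 (adjusted p = 6.8e-22). IGF1R rose by 1.97, ERBB3 by 1.47, INSR by 0.95 and FGFR2 by 3.24, all above both single agents as well. TYRO3 (-1.19) and the ephrin receptor EPHA2 (-1.72) fell. The PI3K, AKT and mTOR genes themselves were 11 higher and 10 lower of 24, shares near those of all genes (38.0% and 35.2%). PIK3R1, the regulatory subunit p85 alpha, went from 65.7, 68.3 and 72.5 to 346, 318 and 343 CPM (2.28 (SE 0.0593, adjusted p = 1.8e-28)) at a level that did not differ detectably from EZH2i (log2 difference 0.03, adjusted p = 0.71), the phosphatase INPP4B rose by 1.79, and AKT1 (-0.82) and the S6 kinase gene RPS6KB2 (-1.34) fell.

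Genes of ERK feedback and of the immediate early response were counted beside 38.0% of all genes higher and 35.2% lower, with 6 of 11 feedback genes higher and 3 lower and 7 of 13 immediate early genes higher and none lower. The rises of DUSP6 (1.37) and FOS (1.69) lost their calls without DMSO library B or C or combination library A, with adjusted p up to 0.11 and 0.091. FOS also lost its call with the looser filter of at least 1 count in total. ATF3, a stress-induced member of the family, went from 24.2, 24.6 and 20.9 to 109, 112 and 102 CPM (2.22 (SE 0.0794, adjusted p = 3.3e-24)), KLF4 rose by 2.27 and JUN by 1.68. The paper reports no induction of ATF3 by EZH2 and AKT inhibitors, from an immunoblot of protein at an earlier time than these RNA libraries. The phosphatase DUSP4 and the RAS inhibitor SPRED1 rose by 1.35 and 1.05, whereas DUSP7 fell (-1.34). EGR1 was near 0 CPM in both arms (0.404, 0.221 and 0.192 and 0.659, 0.346 and 0.604) and was not called (log2 fold change 0.99, adjusted p = 0.15).

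Genes of the ATF4 and CHOP stress response rose in the combination, although their list level lay below DMSO with either agent alone. Of 25 genes 20 rose and 3 fell against DMSO (median 0.49), and 22 were higher than in AKTi and also higher than in EZH2i, compared with 15.5% of all genes. The list level relative to DMSO was -0.51, -0.36 and -0.33 in the AKTi libraries and -0.94, -0.96 and -0.90 in EZH2i, below 0 in all 6, and 0.50, 0.57 and 0.52 in the combination, above 0 in all 3. DDIT3, which encodes the stress factor CHOP, had 26.1, 30.9 and 24.8 CPM in DMSO, 19.02, 19.2 and 19.3 CPM in AKTi, 14.6, 16.9 and 19.4 CPM in EZH2i and 87.7, 85.3 and 86.3 CPM in the combination (1.67 (SE 0.0854, adjusted p = 1.7e-19) over DMSO). NUPR1, a chromatin-associated stress protein, rose by 2.16, the cytokine GDF15 by 2.09, and the mTORC1 inhibitors SESN2 and DDIT4 by 1.21 and 0.86. ASNS, the asparagine synthetase, rose by 0.49 against DMSO (adjusted p = 6.4e-05) and by 1.88 against EZH2i (adjusted p = 1.4e-16). The leucine carrier SLC7A5 fell by 0.49 on the log2 scale and ATF5 by 1.05.

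Within the endoplasmic reticulum list the 3 stress sensors rose and most chaperones fell, 7 higher and 15 lower of 23. ERN1, the sensor IRE1, went from 46.1, 55.3 and 54.3 to 127, 130.0 and 130.0 CPM (1.31 (SE 0.0672, adjusted p = 1.8e-19)), the sensors EIF2AK3 (PERK) and ATF6 rose by 0.99 and 0.90, and SEL1L and HERPUD1, of the degradation machinery, rose by 1.04 and 0.74. HSPA5, the chaperone BiP, fell by 0.45, MANF by 1.19 and SDF2L1 by 2.05 on the log2 scale. Of the 18 NRF2 targets 7 rose and 11 fell. HMOX1, the heme oxygenase, rose from 16.02, 17.5 and 18.8 to 66.7, 59.3 and 58.4 CPM (1.81 (SE 0.0936, adjusted p = 2.3e-19)) and the ferritin light chain FTL by 1.18, whereas NQO1 (-1.71), the glutathione reductase GSR (-1.64) and TXNRD1 (-0.87) fell.

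The BH3-only members of the BCL-2 family activate apoptosis. Of 8 BH3-only genes 5 rose, each above both single agents, and 3 fell, with 5 higher and 1 lower with scaling by library size or upper quartile. Among all genes 38.0% rose, 35.2% fell and 15.5% were above both single agents. BMF had 6.597, 5.02 and 6.47 CPM in DMSO, 12.8, 7.08 and 9.04 CPM in AKTi, 52.8, 57.3 and 59.8 CPM in EZH2i and 78.5, 81.2 and 77.7 CPM in the combination (3.70 (SE 0.119, adjusted p = 1.2e-25) over DMSO, and 0.48 over EZH2i with an adjusted p of 3.4e-05). BBC3, which encodes PUMA, went from 3.57, 3.02 and 3.93 to 17.03, 16.7 and 12.4 CPM (2.12 (SE 0.1703, adjusted p = 9.0e-14)), where AKTi had 7.496 ± 0.8995 and EZH2i 4.16 ± 0.725 CPM (SD, n = 3). BCL2L11, which encodes BIM, rose by 1.36 and PMAIP1, which encodes NOXA, fell by 1.56 on the log2 scale, with combination libraries of 7.401, 4.96 and 6.04 CPM against 19.3, 18.7 and 16.7 CPM in DMSO.

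Of the antiapoptotic members, BCL2 fell from 3.03, 2.73 and 4.12 to 0.963, 1.21 and 0.906 CPM (-1.69 (SE 0.319, adjusted p = 1.3e-05)). BCL2L1 rose by 0.47 (adjusted p = 1.0e-07), and MCL1 was not called (0.04, adjusted p = 0.5) except with scaling by library size or upper quartile, where it was higher. The pore-forming BAK1 fell by 1.11 and BAX by 0.46 on the log2 scale, while BOK rose by 0.53. Of 23 caspases, death receptors and apoptosis inhibitors 7 rose and 11 fell, and their median of -0.07 was above 0 with scaling by library size (0.124) or upper quartile (0.112), with 8 higher and 6 lower in both. APAF1, the apoptosome scaffold, rose by 1.23 and CASP9 by 1.10, while cytochrome c (CYCS), from which the apoptosome forms, fell from 787, 731 and 695 to 134, 127 and 135 CPM (-2.48 (SE 0.0555, adjusted p = 2.1e-30)).

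Polycomb genes changed by subunit. Of 12 PRC2 genes 8 fell and 3 rose. EZH2, the target of tazemetostat, had 79.6, 73.98 and 73.8 CPM in DMSO and 22.8, 23.1 and 22.5 CPM in the combination (-1.73 (SE 0.0788, adjusted p = 4.8e-21)), below both AKTi (41.5 ± 4.18 CPM) and EZH2i (35.3 ± 1.91 CPM, SD, n = 3). Its paralog EZH1 rose by 1.07, JARID2, an accessory subunit, by 1.63 and PHF1 by 1.24, and the elongin-binding subunit EPOP fell by 1.40 on the log2 scale. The mRNA of a drug's target does not measure inhibition of the enzyme. Of 20 PRC1 genes 10 rose and 7 fell, from PHC1 at 2.84 to CBX2 at -1.11, beside 38.0% and 35.2% of all genes. This split was 12 higher and 3 lower with scaling by library size or upper quartile. DNMT1 fell by 2.15 on the log2 scale, whereas DNMT3A, a de novo DNA methyltransferase, rose from 11.98, 12.9 and 15.1 to 48.3, 58.002 and 53.9 CPM (1.99 (SE 0.0998, adjusted p = 9.9e-20)) and TET2 rose by 0.73.

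Luminal and androgen-responsive genes mostly rose, in a medium depleted of androgen in every arm. Of 12 luminal markers 11 rose and 1, the homeobox gene HOXB13 (-0.53), fell, with a median of 1.40 below the rise of the basal marker ITGB4 (2.46). ACPP, prostatic acid phosphatase, had 17.5, 21.8 and 17.1 CPM in DMSO, 331, 354 and 361 CPM in EZH2i and 962, 896 and 943 CPM in the combination (5.65 (SE 0.07505, adjusted p = 6.6e-37) over DMSO). KLK3, which encodes PSA, went from 1389, 1338 and 1389 to 3961, 3980.4 and 3881 CPM (1.52 (SE 0.0507, adjusted p = 4.0e-25)). All combination libraries of these genes lay above all DMSO libraries, and TMPRSS2, an androgen-induced serine protease, rose as well (3.62).

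Of 26 androgen-responsive genes 18 rose and 6 fell (median 1.499), and 12 were above both single agents. Among all genes 38.0% rose and 15.5% were above both. FKBP5, a chaperone induced by steroid receptors, fell from 152, 155 and 165 to 49.7, 52.5 and 48.4 CPM (-1.65 (SE 0.0623, adjusted p = 1.7e-23)), against the direction of KLK3 and TMPRSS2 on the same list, and it was also below both single agents. NDRG1 rose by 2.96, and MAF, a transcription factor, by 4.59.

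Tested genes of developmental signalling and cell surface contact, many of them low in DMSO, rose widely. A gene silent in DMSO passed the filter only where a treated arm expressed it. Silent members that stayed silent were therefore not tested, which favours rises in the shares of this and the following lists. Of 52 tested axon guidance ligands and receptors, from 68 listed, 41 rose and 4 fell (median 0.99), beside 38.0% of all genes higher. The list level was 0.44, 0.32 and 0.28 in AKTi, 0.97, 1.02 and 0.93 in EZH2i and 0.98, 1.02 and 0.98 in the combination, so that EZH2i and the combination overlapped. SLIT1, a repellent ligand, went from 0.471, 0.221 and 0.527 to 7.502, 9.22 and 10.3 CPM (4.38 (SE 0.289, adjusted p = 2.8e-16)) and was above EZH2i by 1.53 (adjusted p = 1.2e-07). The ephrin receptor EPHA5 rose by 3.92 but was below EZH2i, by a log2 difference of -0.69 (adjusted p = 0.002).

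TGF-beta and BMP genes gave 23 higher and 6 lower of 31 tested, from 38 listed (median 0.93). TGFBR2, the type II receptor, had 0.0673, 0.221 and 0.4795 CPM in DMSO and 4.46, 4.38 and 5.13 CPM in the combination (4.02 (SE 0.3996, adjusted p = 2.0e-11)), a level not detectably different from EZH2i (0.43, adjusted p = 0.2). SMAD3, which carries the signal to the nucleus, rose from 7.81, 5.901 and 5.66 to 31.8, 30.9 and 31.96 CPM (2.30 (SE 0.123, adjusted p = 7.3e-19)) and was above both agents. The ligand BMP6 rose by 2.79, while BMP7 (-1.14) and the BMP-induced inhibitor ID1 (-0.96) fell. WNT genes were 15 higher and 6 lower of 28 tested, from 45 listed. The receptor FZD7 changed by 3.03, the nuclear effector LEF1 by 2.07 and the ligand WNT10B by -2.81.

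Matrix genes followed the same direction. Of 40 tested collagens, laminins and integrins, from 58 listed, 26 rose and 3 fell. COL12A1 went from 1.08, 0.369 and 1.01 to 16.7, 16.5 and 17.3 CPM (4.30 (SE 0.216, adjusted p = 9.1e-20)), a level that did not differ detectably from EZH2i (-0.02, adjusted p = 0.93), and COL5A2 rose by 4.46. FN1, fibronectin, had 1027, 1165 and 1162 CPM in DMSO and 5975, 5856 and 5867 CPM in the combination (2.40 (SE 0.0573, adjusted p = 1.4e-29)) and was above both agents. Vimentin (VIM) rose by 2.49, while the epithelial cadherin CDH1 was not called with TMM (-0.03, adjusted p = 0.63) and was higher by 0.17 with scaling by library size and by 0.16 by upper quartile.

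Homeobox and other developmental transcription factors set tissue identity during development. Of 25 tested HOX genes, from 39 listed, 11 rose and 4 fell, a share of rises near that of all genes (38.0%). HOXC4 changed by 2.72, HOXB9 by 1.81 and HOXA11 by -1.49. Of 60 tested developmental factors, from 117 listed, 32 rose and 8 fell. FOXD1 went from 0.404, 0.369 and 0.719 to 17.9, 19.4 and 16.3 CPM (5.07 (SE 0.234, adjusted p = 6.6e-21)) and SOX9 from 10.2, 8.63 and 10.6 to 94.99, 95.02 and 89.8 CPM (3.24 (SE 0.0946, adjusted p = 6.4e-27)), both above EZH2i alone. PITX1 (-1.41) and DLX1 (-2.24), higher in DMSO, fell.

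Interferon-stimulated and antigen presentation genes rose on balance by count, but not as a block. Of 32 tested interferon-stimulated genes, from 44 listed, 18 rose and 6 fell. Their list level relative to DMSO was 0.96, 0.86 and 0.70 in EZH2i and 0.76, 0.92 and 0.59 in the combination, so these arms overlapped. Against EZH2i alone, 6 of these genes were higher and 8 lower. HERC5 (2.67) and GBP2 (2.31) rose from 2.22, 1.84 and 0.863 and 2.49, 2.88 and 2.69 CPM in DMSO, whereas the antiviral genes OAS3 (-1.59) and USP18 (-1.32) and the modifier ISG15 (-0.69) fell. Of 18 antigen processing genes 12 rose and 3 fell against DMSO, and 4 were higher and 3 lower than in EZH2i alone. HLA-E went from 30.5, 23.01 and 24.7 to 77.4, 79.4 and 74.1 CPM (1.56 (SE 0.0916, adjusted p = 1.1e-17)), although HLA genes are near-copies whose reads may be shared. TAP2, a subunit of the peptide transporter, fell by 1.30 on the log2 scale, and its partner TAP1 rose by 0.54.

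Of 21 HIF-1 targets outside glycolysis 14 rose, 4 fell and 3 were not called, beside 38.0% of all genes higher and 35.2% lower. The paper reports that a HIF-1A target signature, scored per sample by ssGSEA, was suppressed, mainly by the AKT inhibitor. It also reports less HIF-1A protein by immunoblot with that inhibitor. The list here leaves out glycolytic targets and is a different gene set, so its counts do not measure that signature or HIF-1 activity. VEGFA, the angiogenic ligand, had 103, 95.5 and 97.1 CPM in DMSO, 73.1, 69.3 and 67.9 CPM in AKTi, 61.9, 53.4 and 60.3 CPM in EZH2i and 175, 171 and 175 CPM in the combination (0.82 (SE 0.0596, adjusted p = 6.6e-15) over DMSO), so each agent alone lay below DMSO and the combination above it. TFRC, the transferrin receptor, went the other way, from 1112, 1038 and 1085 to 118, 111 and 111 CPM (-3.25 (SE 0.06198, adjusted p = 2.1e-32)), and the carbonic anhydrase CA12 fell by 1.70 on the log2 scale. RORA, a nuclear receptor, rose by 4.05.

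Markers of other cell types were mostly too low to test. Of 12 fibroblast, endothelial and leukocyte markers 5 were tested, and COL1A1 (from 6.87, 5.83 and 4.32 to 14.8, 11.4 and 9.73 CPM, 1.10) and VWF (1.24) rose. Of 14 neuroendocrine markers 6 were tested, 2 rose and 2 fell (median 0.12). SYT4, a synaptotagmin of secretory vesicles, had 46.4, 42.7 and 45.1 CPM in DMSO, 769, 774 and 798 CPM in EZH2i and 809.5, 729 and 765 CPM in the combination (4.10 (SE 0.0629, adjusted p = 5.1e-35) over DMSO), which did not differ detectably from EZH2i (log2 difference -0.02, adjusted p = 0.75). ENO2 rose by 0.84 and DLL3, a Notch ligand, fell by 1.13 on the log2 scale, and SYP was not called (0.52, adjusted p = 0.11). The part of these cells or programs in the other results was not tested.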

How the data were processed

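PolyA RNA of C4.2B cells was analysed in 12 libraries, 3 each for DMSO, AKTi, EZH2i and combination. Per the submitters' processing notes, reads were aligned with STAR to hg38 and counted with HTSeq, and the authors deposited raw counts per gene. Versions, annotation and strand setting are not given in the sources used here, so reads of overlapping or near-identical genes may have been split or lost. The deposited DESeq2-normalized table was not used, because it holds the same libraries. The NextSeq 500 or Novogene runs are not assigned to libraries, so no batch was modelled.

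Counts were analysed in R 4.3.3 with edgeR 4.0.16. Genes passed filterByExpr (minimum count 10, minimum total 15), libraries were scaled by TMM, 1 mean per arm was fitted over all 12 libraries, and the combination was contrasted with DMSO, AKTi and EZH2i by the quasi-likelihood test (Benjamini-Hochberg adjusted p under 0.05 over all 16646 genes). No sample column was left out. Library pairs of 1 arm differed by more than sampling noise (chi-square of 3.31 to 7.48 per gene), so no pair was treated as repeat deposits of 1 library. On simulated counts for combination against DMSO (16163 genes), edgeR recovered 147 of 194 genes changed 2-fold (75.8%) with 13 false calls, and DESeq2 1.42.0 recovered 146 with 12. The simulation left most genes unchanged, whereas 73.2% were called in the data, so it did not test the scaling under such a broad change.

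The 57 gene lists were written from general knowledge, and the lists and the comparison were chosen with earlier results of these data known. Named genes are defining members marked on each list, the 2 largest and 2 smallest changes of a list, and the 15 largest and 15 smallest of all protein-coding genes, the latter choices at an adjusted p under 0.05 and with a log2 CPM (prior count 2) averaging 1 or more, and for the extremes of all genes with every combination library outside the DMSO range and no genes of glycolysis, the TCA cycle or oxidative phosphorylation. COLCA1, COLCA2, EIF2AK3, ATF6, PAOX, SESN1, SYP and the genes whose promoter windows are printed were named after their values were seen. Some genes and 2 lists are not reported here. Gene coordinates come from the count table. Promoter sequences are from RefSeq (GRCh38.p14) and were matched by symbol for 10621 of 13083 tested protein-coding genes. Figures were drawn in Python 3.11.15 with matplotlib 3.10.9. Alternatives were DESeq2, scaling by library size or upper quartile, stricter and looser count filters, a fit of only the 6 DMSO and combination libraries, a block for the replicate letter and the omission of each library.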

Additional observations from a re-analysis of the deposited data

How the results depend on the processing

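The number of genes that differed between combination and DMSO ran from 10498 (at least 10 counts in each library, 13359 genes tested) to 12507 (at least 1 count in total, 34381 genes tested) over the alternatives, against 12186 as reported, and from 11756 to 11926 when any 1 library was left out. DESeq2 called 12021 genes, 11994 of them also called by edgeR, and no gene called under both the reported fit and an alternative changed sign. With a replicate block 12146 genes changed, 6298 higher and 5848 lower. The letters A to C are not said to pair libraries, the deviations of same-letter libraries correlated at r = -0.026, -0.011 and -0.058, and no library correlated best with its own letter, so the block adds no pairing. Scaling moved small changes most. By library size and by upper quartile, CDH1 turned to 0.17 (adjusted p = 0.0032) and 0.16 (adjusted p = 0.0051), the median of the prosurvival BCL-2 genes to 0.0780 and 0.0661 and that of caspases, death receptors and inhibitors to 0.124 and 0.112. With at least 1 count in total, the median of the fibroblast, endothelial and leukocyte markers turned to -0.163 and that of the PI3K, AKT and mTOR genes to -0.0615. With at least 10 counts in each library, the median of the CDK inhibitors turned to -0.0663, with fewer members tested. Of 3779 values of named genes under the alternatives, 3724 kept their side of the threshold and, where the gene was called, their direction. Changes of sign in genes not called were not counted. Genes near 0 CPM in an arm, among them SHISA2, OR51E1 and TERT, have fold changes that depend on the prior count, and transcripts without a polyA tail were not measured well.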

Other observations

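Calls differed by gene class and level. Of 2365 tested long noncoding RNA genes 1000 were higher in the combination and 301 lower, with a median log2 fold change of 0.53, compared with 5019 higher and 5253 lower of 13083 protein-coding genes and 223 higher and 281 lower of 978 pseudogenes. These differences were not tested. Of the 5549 tested genes with the lowest level over the 6 libraries 41.8% were higher and 12.8% lower, and of the 5549 with the highest level 33.3% were higher and 53.5% lower. Genes silent in DMSO were tested only where a treated arm expressed them, which favours rises in these shares. Of the tested genes, 30 had 0 counts in all DMSO libraries, 29 of them called higher, and 2 had 0 counts in all combination libraries. The noncoding gene with the largest rise among those with a mean log2 CPM of at least 1 was COLCA1, named here after its values were seen, which the count table places as antisense at chr11:111290787-111305045, minus strand (hg38). COLCA1 had 6.597, 6.71 and 5.66 CPM in DMSO, 39.4, 42.2 and 43.1 CPM in AKTi, 542, 593 and 617 CPM in EZH2i and 1319.8, 1284 and 1363 CPM in the combination, a log2 fold change of 7.72 (SE 0.0826, adjusted p = 6.0e-40) over DMSO by edgeR's quasi-likelihood test. It overlaps COLCA2 on the opposite strand (5.86), and without the strand setting of the counting their shared reads cannot be told apart.

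Histone genes with polyadenylated transcripts were 7 higher and 6 lower of 16, shares near those of all genes (38.0% and 35.2%). The replacement variant H1F0, of resting and differentiated cells, rose from 171, 163 and 186 to 369, 352 and 349.8 CPM (1.04), and HIST2H2BE and HIST1H2BC rose by 1.77 and 1.75, whereas H2AFX and H2AFZ fell by 3.34 and 2.63 on the log2 scale. Most replication-dependent histone transcripts lack a polyA tail, so polyA libraries measure them poorly. TERT, the catalytic subunit of telomerase, had 5.25, 5.97 and 6.38 CPM in DMSO, 5.498, 4.69 and 5.98 CPM in AKTi, 0.402, 0.877 and 0.735 CPM in EZH2i and 0.304, 0 and 0.0604 CPM in the combination (log2 fold change -5.42 (SE 0.422, adjusted p = 2.5e-14)). Of 9 telomerase and shelterin genes 1, the shelterin gene TINF2, rose (0.82) and 5 fell, among them the shelterin genes TERF1, TERF2 and ACD (-0.48 for ACD). The type II keratin KRT8 rose by 0.66 while KRT10 fell by 0.74 on the log2 scale.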
